A study of Mus musculus with 6 samples.

Results

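Lateral septum neurons with Pax6 and Eya4 were chosen nucleus by nucleus from droplet sequencing of the mouse septal area. A nucleus was a member when at least 500 genes were detected, at most 5% of its unique molecular identifiers (UMIs, 1 per captured RNA molecule) were mitochondrial, Gad1 and Gad2 together had at least 2 UMIs, Trpc4 and Dgkg together had at least 6, Slc17a6 had 0, and at least 4 of the 6 genes Necab1, Sel1l3, Eya4, Pax6, Cpne4 and Syt6 had a UMI. This gave 1276 members, of 13740 nuclei that met all but the last step (the lateral septum gate), 54605 nuclei that passed the gene and mitochondrial filters and 55537 barcodes. The 6 libraries came from wild type mouse brain and form 1 group, numbered replicates 1 to 6. Neither age, sex nor the number of animals is stated, so p-values here reflect the spread among libraries alone, and that spread may be technical. Every comparison is between nuclei of the same library: the members against the 12464 other nuclei of the gate, called other lateral septum nuclei, or against smaller groups of them.

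The lateral septum is a forebrain region made up mostly of inhibitory neurons that use GABA as transmitter and connect the hippocampus with the hypothalamus. Its neurons differ from one another in transcription factors, receptors and channels. Pax6 is a paired-box homeodomain transcription factor of forebrain development that is kept in some adult neurons and in astrocytes. Eya4 belongs to the eyes absent family, transcriptional coactivators with phosphatase activity that partner homeodomain factors in development. Necab1 is a neuronal calcium-binding protein, Sel1l3 a membrane protein, Cpne4 a copine (a calcium-dependent phospholipid-binding protein), and Syt6 a synaptotagmin.

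The libraries held 7393 to 11134 barcodes with 70183544 to 95175260 UMIs, and replicates 1 to 6 gave 198, 230, 170, 261, 222 and 195 members. The median member had 16372.5 to 19960 UMIs, depending on the library, against 13232 to 16318 for other lateral septum nuclei. The largest member of a library had 96216 to 251563 UMIs, the most in replicate 4, and counts summed per library give such nuclei more weight. Predicted doublets, barcodes that may hold 2 nuclei, made up 17.6 to 27.2% of members and 8.58 to 14.6% of the others. No member barcode occurred in more than 1 library, and overall barcode sharing stayed at or under 0.433% of the smaller library in each pair. Replicate 4 stood apart before any test, with the lowest level of all 6 chosen genes in its members, and some of the results below are also given without it. The 8 glial genes Aqp4, Gja1, Mog, Mag, Pdgfra, Cspg4, Csf1r and Cx3cr1 summed to 195.5 counts per 1e6 UMIs (CPM) in members of replicate 4 and 84.3 CPM in its other lateral septum nuclei. In the other 5 libraries that sum was 105.7 to 140.9 CPM in members and 62.6 to 74.6 CPM in the others. Members with at most 1 UMI of these genes made up 56.7% of members in replicate 4 and 67.6 to 74.8% in the other 5 libraries. In replicate 4 they held 2280398 of the 7280440 UMIs of its members.

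Members made up 9.33 ± 0.789% of the lateral septum gate (SD, n = 6 libraries) and 2.35 ± 0.205% of all kept nuclei. Replicate 6 had the highest share of the gate, 10.1%, and replicate 2 the lowest, 8.06%. Without replicate 4 the share of the gate was 9.19 ± 0.793% (SD, n = 5). These shares follow from the threshold of 4 genes. Requiring at least 3 genes gave 21.7%, requiring at least 5 gave 5.72%, and counting the genes after thinning every nucleus to 3000 UMIs gave 3.84%.

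The number of chosen genes detected per nucleus had a first peak at 1 gene and was lowest at 5. Of the gate nuclei, 2023 had none of the 6 genes, 4752 had 1, 3993 had 2, 1696 had 3, 495 had 4, 368 had 5 and 413 had all 6. In the pooled counts nuclei with all 6 genes thus outnumbered those with 5, and this held in replicates 1, 2, 3, 4 and 6 but not in replicate 5, which had 67 against 81. Nuclei with exactly 4 genes were the deepest, with library medians of 18891.5 to 22321.5 UMIs, against 14269 to 17121.5 UMIs in nuclei with all 6.

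**Figure D1:**
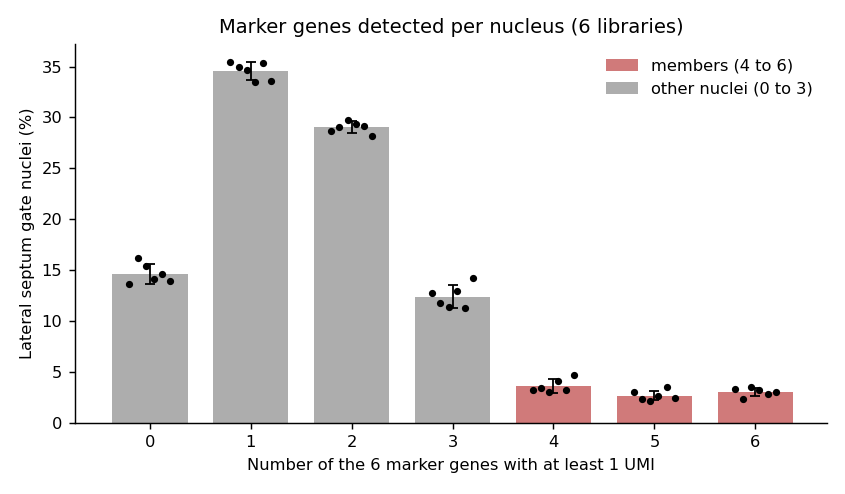
Share of lateral septum gate nuclei (%, y axis) by the number of the 6 marker genes with at least 1 UMI (x axis). Bars are means and error bars SDs over 6 libraries, points are libraries, red bars are members and grey bars are other nuclei, and 1 gene is the commonest number in every library.

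The 6 chosen genes were far more abundant in members, which the rule fixes, so their levels are a description with no test. Pax6 ranged from 78.3 to 150.7 CPM in members with a median of 110.5 CPM, against 3.5 to 5.29 CPM with a median of 4.29 CPM in other lateral septum nuclei. Eya4 ranged from 90.8 to 167.2 CPM in members with a median of 127.2 CPM, against 2.98 to 5.61 CPM with a median of 4.16 CPM in the others. The ranges of members and others did not overlap for either gene, and the lowest member value was that of replicate 4 for both. Necab1 averaged 586.2 ± 95.4 CPM in members and 86.5 ± 4.91 CPM in the others, Sel1l3 averaged 243.9 ± 43.0 CPM and 30.6 ± 2.74 CPM, Cpne4 averaged 1217.1 ± 197.2 CPM and 301.1 ± 17.8 CPM, and Syt6 averaged 161.6 ± 24.5 CPM and 16.0 ± 2.57 CPM (SD, n = 6 each, members first in every pair). Without replicate 4, Pax6 in members averaged 120.7 ± 21.5 CPM and Eya4 135.5 ± 31.3 CPM (SD, n = 5).

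Just inside and just outside the threshold, levels were closer. Pax6 averaged 42.5 ± 14.7 CPM in nuclei with 4 genes and 12.9 ± 2.94 CPM in nuclei with 3. In nuclei with 5 or 6 genes it averaged 167.8 ± 44.4 CPM. Eya4 averaged 27.8 ± 8.39 CPM with 4 genes, 12.6 ± 3.68 CPM with 3, and 204.0 ± 61.0 CPM with 5 or 6 (SD, n = 6 each). Members with 4 genes thus held less of both genes than the rest of the members.

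Leaving each gene out of its own choice gives its level in nuclei picked by the other 5. In nuclei with at least 4 of the other 5 genes Pax6 averaged 118.8 ± 31.1 CPM, against 6.63 ± 1.26 CPM in the rest of the gate, a ratio of 18.4 ± 5.85 over the 6 libraries. Eya4 averaged 132.2 ± 36.2 CPM against 5.93 ± 0.957 CPM, a ratio of 23.0 ± 8.68. The ratio was 8.16 ± 1.63 for Necab1, 9.47 ± 2.06 for Sel1l3, 5.36 ± 1.24 for Cpne4 and 10.2 ± 2.50 for Syt6 (SD, n = 6). Each of the 6 genes was more abundant where at least 4 of the other 5 were detected, in every library, and the ranges over libraries did not overlap. Nuclei picked in this way are all members, so the ratios are a description with no test. The smallest of these ratios came from replicate 4 for all 6 genes.

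**Figure D2:**
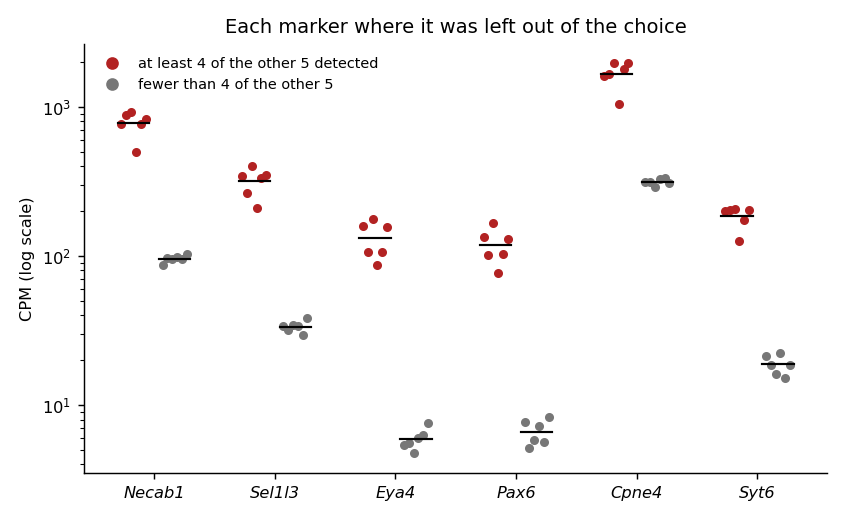
Level of each of the 6 marker genes (CPM, log axis) in nuclei with at least 4 of the other 5 genes (red) and in the rest of the lateral septum gate (grey). Points are 6 libraries and lines their means, and the red and grey points do not overlap for any gene.

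A UMI of Pax6 was found in 77.1 ± 4.34% of members, 4.92 ± 0.507% of other lateral septum nuclei and 3.03 ± 0.873% of nuclei with oligodendrocyte markers. The oligodendrocyte-marker nuclei were shallower, with library medians of 3290 to 4312.5 UMIs. They held Pax6 at 8.01 ± 2.73 CPM, against 4.37 ± 0.717 CPM in the other lateral septum nuclei, and so give no background for Pax6. The share with Eya4 was 50.5 ± 3.19% in members, 3.81 ± 0.512% in the others and 5.83 ± 1.04% in oligodendrocyte-marker nuclei, which held Eya4 at 18.1 ± 2.76 CPM, against 4.38 ± 1.06 CPM in the other lateral septum nuclei, and so give no background for it. Nuclei thinned to 3000 UMIs gave 35.4 ± 5.88% of members and 1.17 ± 0.251% of others for Pax6, and 26.9 ± 3.15% of members and 1.32 ± 0.353% of others for Eya4 (SD, n = 6 each). Nuclei with astrocyte markers also held both RNAs, at 61.2 ± 4.71 CPM for Pax6 and 50.8 ± 7.01 CPM for Eya4.

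The label of lateral septum GABAergic neurons was held against markers. Trpc4 averaged 695.7 ± 65.5 CPM in members, against 747.0 ± 11.5 CPM in other lateral septum nuclei and 25.5 ± 2.52 CPM in GABAergic nuclei outside the gate, and Dgkg averaged 610.3 ± 36.8 CPM, against 900.5 ± 28.8 CPM and 29.0 ± 4.17 CPM (SD, n = 6), all 3 sets being chosen by these genes. Of the 4 lateral septum markers that the rule did not use, Crhr2, the receptor of urocortins, was lower in members at 7.08 ± 1.72 CPM, against 16.3 ± 1.07 CPM in the others, with a log2 difference of -1.16 and an adjusted p of 1.49e-07. Esr1, Nts and Sst did not pass the test, with log2 differences of 0.00, -0.20 and -0.36. Slc32a1, the vesicular transporter of GABA, was measured at 14.7 ± 3.53 CPM in members and 15.3 ± 1.73 CPM in the others. Of the glutamatergic markers Slc17a6 was at 0 by the rule, the whole list summed to 0.475 to 3.38 CPM in members and 1.81 to 4.12 CPM in the others, and none passed the test.

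Glial markers moved with membership. All 6 astrocyte markers were higher in members, summing to 500.8 to 842.8 CPM across libraries, against 301.8 to 405.4 CPM in the others, and so were all 5 oligodendrocyte markers (256.9 to 498.7 CPM against 201.3 to 266.4 CPM), all 3 of oligodendrocyte precursors and all 3 tested of microglia. With predicted doublets removed, 0 of the astrocyte, 4 of the oligodendrocyte, 1 of the precursor and 1 of the microglial markers remained higher. Nuclei with astrocyte markers held 300.7 ± 37.7 CPM of Aqp4 and those with oligodendrocyte markers 749.3 ± 29.3 CPM of Mog, against 9.13 ± 2.30 and 28.4 ± 9.45 CPM in members (SD, n = 6). The part of glial RNA in the results was not tested, and each list count below is given with its count after removal of predicted doublets where that moved it by over 1.5 times. The 3 ependymal markers gave 0 calls. Of other neuronal types, 1 of 2 cholinergic markers tested (Chat, -0.87) was lower, 2 of 4 medial septum markers were lower and 1 higher (Kcnc2, 0.17, which did not pass in 9 of 20 alternatives), and 2 of 6 striatal markers were higher and 2 lower. Of 2 interneuron markers tested Reln was higher, with a median of 177.8 CPM in members and 96.5 CPM in the others, and of 5 neuroblast markers 2 were higher and 1 lower. Of vascular markers, 1 of 2 endothelial, 1 of 1 pericyte and 1 of 1 fibroblast markers were higher, and 0 of each were with predicted doublets removed.

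Across all genes, the members differed from the other lateral septum nuclei at 4664 of 17114 genes tested (27.3%), with an edgeR quasi-likelihood test on counts summed per library, library as a block, and a Benjamini-Hochberg adjusted p under 0.05. Of these, 2472 were higher in members (14.4%) and 2192 lower (12.8%). The 11 genes of the rule were not tested. The ranges over libraries did not overlap for 2319 genes (13.6%). Without replicate 4 there were 2210 higher and 1897 lower of 16970 tested. With predicted doublets removed there were 1607 higher and 1523 lower, and among nuclei with at most 1 UMI of the 8 glial genes, 1676 higher and 1684 lower.

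Genes named for the size of their difference had at least 20 CPM in the group where they were higher. The largest difference was that of 2600014E21Rik, a long noncoding RNA gene with no function stated here. It ranged from 23.2 to 86.5 CPM in members with a median of 64.7 CPM, against 0.267 to 0.823 CPM with a median of 0.460 CPM in the other nuclei. Every library's members stood above every library's others, although replicate 4 (23.2 CPM) and replicate 3 (31.0 CPM) were well below the remaining 4 (64.2 to 86.5 CPM). The log2 difference was 6.87 ± 0.16 (SE, adjusted p = 2.04e-14), and 7.13 without replicate 4. GABAergic nuclei outside the gate held 2.30 ± 0.293 CPM, and astrocyte-marker nuclei 1.12 ± 0.914 CPM (SD, n = 6). A330043C09Rik, which overlaps it on the opposite strand in the GENCODE M21 annotation and was looked up for that reason, averaged 4.44 ± 1.91 CPM in members and 0.0352 ± 0.0549 CPM in the others. Without strand, reads of such a pair cannot be told apart, and whether the counting used strand is not stated.

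The 2 largest higher differences of named genes, 2600014E21Rik and Pax6os1, lie on chromosome 2, Pax6os1 beside Pax6, so the sequences upstream of these starts are shown. Each run is the 250 bases before a RefSeq start of build GRCm38.p6, on the gene's own strand, at chr2:105668646-105668895 (plus strand) for Pax6, chr2:105670331-105670580 (minus strand) for Pax6os1 and chr2:75137405-75137654 (plus strand) for 2600014E21Rik. Capitals mark TAATTA, a core read by many homeodomains, searched on both strands (it is its own reverse complement).
Pax6: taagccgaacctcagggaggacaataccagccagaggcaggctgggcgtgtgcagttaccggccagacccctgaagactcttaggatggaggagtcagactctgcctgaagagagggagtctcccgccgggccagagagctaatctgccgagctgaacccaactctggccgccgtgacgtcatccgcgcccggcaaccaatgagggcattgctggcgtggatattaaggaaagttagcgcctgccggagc
Pax6os1: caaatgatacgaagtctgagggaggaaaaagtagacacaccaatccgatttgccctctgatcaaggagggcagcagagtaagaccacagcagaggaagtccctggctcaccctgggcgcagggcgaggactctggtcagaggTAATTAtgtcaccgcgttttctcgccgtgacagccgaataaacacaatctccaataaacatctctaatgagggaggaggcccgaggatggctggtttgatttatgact
2600014E21Rik: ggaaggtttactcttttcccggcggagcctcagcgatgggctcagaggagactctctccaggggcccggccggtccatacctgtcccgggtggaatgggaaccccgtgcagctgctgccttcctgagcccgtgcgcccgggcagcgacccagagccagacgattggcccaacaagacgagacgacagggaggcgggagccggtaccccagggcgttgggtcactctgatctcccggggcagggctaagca
TAATTA occurred 1 time before Pax6os1 and 0 times before the other two, and 4.84% of the 32851 such windows held it. The E-box CAGGTG, searched with its reverse complement CACCTG, occurred in none of the 3 windows and in 17.2% of all windows. A match is a description of the letters and not a binding site. RefSeq lists 2 windows for Pax6 and 3 for 2600014E21Rik, of which the first of each is printed.

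Pax6os1, the antisense transcript that starts beside Pax6 and overlaps it on the opposite strand, ranged from 18.8 to 37.6 CPM in members with a median of 22.6 CPM, against 0.855 to 1.52 CPM with a median of 1.29 CPM in the others. The ranges lay far apart, replicate 4 again being the lowest of the members. Its log2 difference was 4.37 ± 0.18 (SE, adjusted p = 9.09e-12). Because Pax6 was used to choose the nuclei and the pair overlaps, Pax6os1 adds no independent measure of the locus. The same limit holds for Gm11844 (log2 difference 2.81 ± 0.10, SE), which lies on the strand opposite Necab1. Gm48006 (2.11 ± 0.10) overlaps Cacna2d3, also named here, in the same way.

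Otof, another of the 14 largest higher differences, encodes otoferlin, a calcium sensor of vesicle release known from inner hair cells. It ranged from 39.7 to 58.2 CPM in members with a median of 47.6 CPM, against 3.54 to 8.01 CPM with a median of 5.05 CPM in the others, without overlap. Its log2 difference was 3.18 ± 0.13 (SE, adjusted p = 7.84e-12).
Cadps2, which primes dense-core vesicles, ranged from 499.3 to 1009.4 CPM in members with a median of 756.2 CPM, against 143.6 to 169.2 CPM with a median of 154.6 CPM, a log2 difference of 2.27 ± 0.10. Cacna2d3, an auxiliary subunit of voltage-gated calcium channels, ranged from 693.8 to 806.1 CPM in members with a median of 761.1 CPM, against 150.0 to 218.1 CPM with a median of 157.6 CPM, a log2 difference of 2.17 ± 0.08. Its members' levels were the most even of these across libraries. Syt17, a paralog of the chosen Syt6, had a median of 39.5 CPM in members and 8.39 CPM in the others, a log2 difference of 2.18 ± 0.08 (SE).

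Other genes of that set act at receptors, in chromatin and outside the cell. Kctd8, an auxiliary subunit of GABA-B receptors, ranged from 287.6 to 516.9 CPM in members with a median of 434.4 CPM, against 64.6 to 82.0 CPM with a median of 71.1 CPM in the others. Its log2 difference was 2.54 ± 0.10 (SE, adjusted p = 4.72e-12), and replicate 4 was its lowest member value. Dpf3, a subunit of BAF chromatin remodelling complexes, had a median of 175.9 CPM in members and 35.1 CPM in the others (2.35 ± 0.07, SE). Scube1, a secreted and membrane-bound EGF-domain protein, and Lama1, a laminin chain of basement membranes, had log2 differences of 2.12 ± 0.10 and 2.09 ± 0.09. The noncoding A330102I10Rik (2.54 ± 0.09) and Gm28756 (2.33 ± 0.09) complete the set.

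Among the 14 largest lower differences, 3 were channels. Ano1 encodes a calcium-activated chloride channel. It ranged from 92.0 to 123.6 CPM in members with a median of 108.9 CPM, against 260.0 to 307.8 CPM with a median of 287.8 CPM in the others, a log2 difference of -1.39 ± 0.05 (SE, adjusted p = 2.43e-12). Its paralog Ano2 ranged from 76.4 to 93.1 CPM in members with a median of 86.3 CPM, against 189.8 to 217.6 CPM with a median of 203.3 CPM, a log2 difference of -1.22 ± 0.04. Trpc6, a cation channel of the TRPC family, had a median of 36.8 CPM in members and 90.3 CPM in the others (-1.24 ± 0.08, SE). The groups did not overlap for any of the 3.

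The largest lower difference among named genes was that of Cpa6, a secreted carboxypeptidase, which ranged from 40.1 to 83.1 CPM in members with a median of 53.1 CPM, against 167.4 to 253.9 CPM with a median of 226.7 CPM in the others. Its log2 difference was -1.88 ± 0.11 (SE, adjusted p = 3.88e-10). Myo5b, a myosin that carries vesicles along actin, had a median of 164.9 CPM in members and 406.6 CPM in the others (-1.27 ± 0.06). Stac2, an adaptor of L-type calcium channels, followed with -1.49 ± 0.13. Of extracellular genes, the collagens Col6a3 (-1.37 ± 0.09) and Col23a1 (-1.32 ± 0.08) and the laminin chain Lama3 (-1.21 ± 0.08) were lower. Noncoding genes made up the remaining 5: Sfta3-ps (-1.25), 4933432K03Rik (-1.22), Gm15261 (-1.22), 6330411D24Rik (-1.18) and Lncbate1 (-1.17). Of these, 4933432K03Rik lies opposite Hs3st2, Gm15261 opposite Arhgap6 and Lncbate1 opposite Zfhx3.

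**Figure D3:**
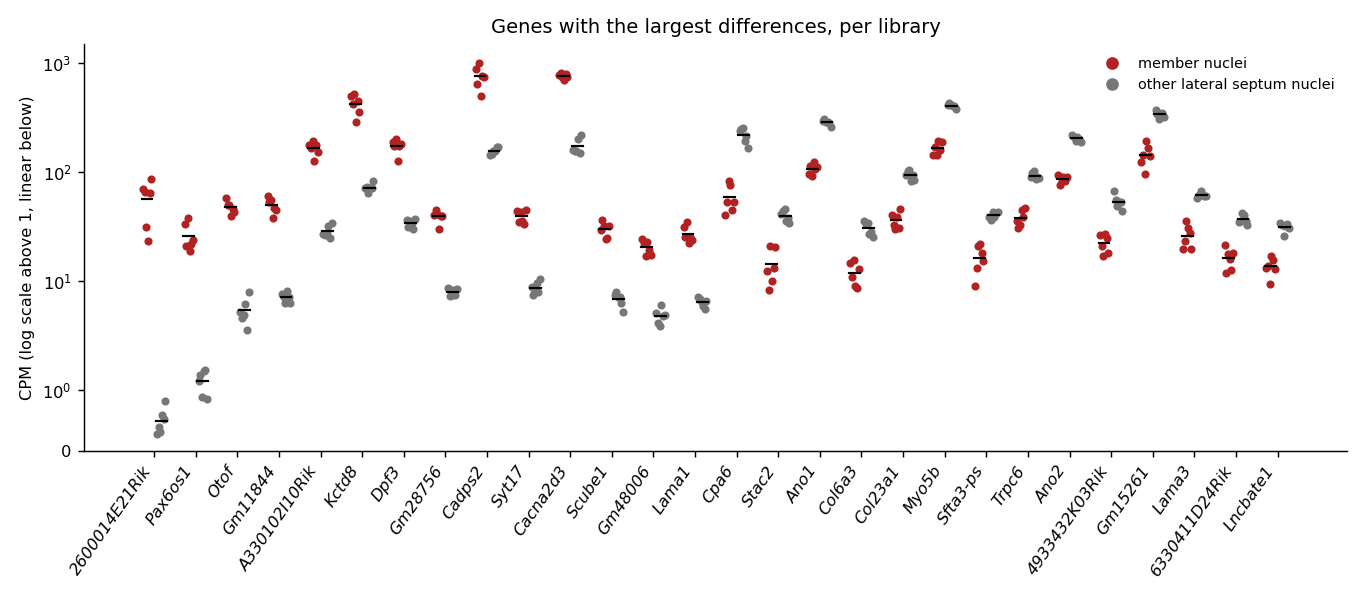
Level (CPM, log axis above 1 and linear below) of the 14 genes with the largest higher and the 14 with the largest lower differences, in members (red, left of each pair) and other lateral septum nuclei (grey, right), 1 point per library and a line at the mean. The 6 red points lie clear of the 6 grey points for all 28 genes.

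The same direction in 6 of 6 libraries was required of these 28 genes by their choice. All 28 kept their direction and passed in each of the 20 alternatives run on them, which reuse nuclei of the main comparison and are no independent support. For all 28 the smallest size was that with a threshold of 3 marker genes, for example 1.79 on the log2 scale for A330102I10Rik and -0.63 for Ano1. All 28 differences were larger without predicted doublets, as with 3.63 for Otof and -1.66 for Ano1.

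Levels of these genes changed at different numbers of detected marker genes. 2600014E21Rik averaged 0.958 ± 0.397 CPM in nuclei with 3 marker genes and 1.47 ± 1.72 CPM with 4, then 54.1 ± 23.7 CPM with 5 and 149.6 ± 88.0 CPM with 6 (SD, n = 6 libraries each). Otof averaged 9.04 ± 3.37 CPM with 3, 21.4 ± 9.24 CPM with 4, 64.2 ± 12.2 CPM with 5 and 75.1 ± 24.7 CPM with 6. Nuclei with 4 genes thus resembled those with 3 in 2600014E21Rik, while Otof and Cacna2d3 (424.8 ± 96.8 CPM with 4, against 279.2 ± 54.1 CPM with 3 and 878.3 ± 48.4 CPM with 5) lay between. Ano1 averaged 170.2 ± 12.1 CPM with 4, 66.4 ± 13.4 CPM with 5 and 54.6 ± 28.3 CPM with 6, against 253.7 ± 19.5 CPM with 3. Myo5b followed the same order, with 236.9 ± 26.7, 130.3 ± 32.8 and 96.7 ± 55.5 CPM, against 359.1 ± 17.3 CPM with 3. With at least 5 genes as the threshold, the log2 difference of 2600014E21Rik was 7.51 and that of Ano1 -2.15.

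**Figure D4:**
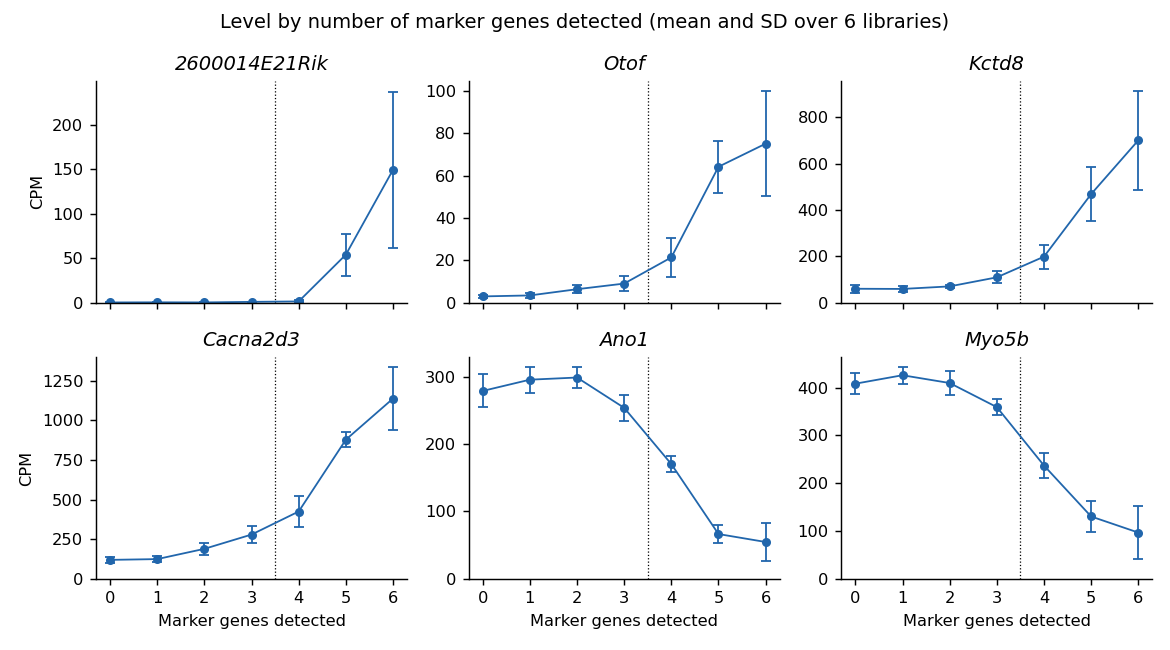
Mean level (CPM) of 6 named genes by the number of marker genes detected (x axis), with SDs over 6 libraries as error bars and a dotted line between other nuclei and members. 2600014E21Rik is near 0 up to 4 genes, whereas mean Ano1 and Myo5b are lower with 3 genes than with 2 and lower again with 4.

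Neuropeptides and their receptors were examined as gene lists, whose members were chosen by function. The counts of this and the following lists stand beside 14.4% higher and 12.8% lower over all genes tested. The lists differ widely in how abundant their RNAs are. Whether a list passed more often than other genes of like abundance was not tested, so its counts are no result about the family. Of 10 neuropeptide precursors tested 1 was higher and 0 were lower, namely Tac1, the precursor of substance P, with a range of 2.16 to 7.75 CPM and a median of 5.64 CPM in members, against 1.54 to 2.39 CPM and a median of 1.98 CPM in the others. The ranges overlapped and the log2 difference was 1.47 ± 0.21 (SE, adjusted p = 2.45e-05). Of 33 neuropeptide receptors 8 were higher and 9 lower. Ntsr1, a neurotensin receptor, ranged from 4.77 to 9.74 CPM in members with a median of 6.64 CPM, against 1.09 to 1.99 CPM with a median of 1.84 CPM (log2 difference 2.04 ± 0.16). The prolactin receptor Prlr (-1.04), the calcitonin receptor Calcr (-0.91) and Crhr2 were lower. With predicted doublets removed, 4 receptors were higher and 7 lower. The list medians were 0.00 and -0.11 on the log2 scale, beside -0.01 over all genes tested.

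Monoamine receptors gave 4 higher and 8 lower of 22, with a list median of -0.25. Htr5b, a serotonin receptor, ranged from 2.70 to 7.13 CPM in members with a median of 4.90 CPM, against 0.387 to 0.870 CPM with a median of 0.677 CPM in the others, a log2 difference of 2.86 ± 0.25 (SE, adjusted p = 8.23e-08). Adra1a, an alpha-1 adrenergic receptor, ranged from 79.4 to 133.5 CPM in members with a median of 96.8 CPM, against 29.1 to 34.6 CPM with a median of 30.6 CPM (1.70 ± 0.09). Both were higher without overlap. The lower ones included 6 serotonin receptors, Htr7 (-0.99), Htr1b (-0.68), Htr4 (-0.64), Htr2a (-0.50), Htr1f (-0.43) and Htr2c (-0.21), beside the dopamine receptor Drd2 (-0.62) and the adrenergic Adrb1 (-0.41). Of 7 acetylcholine receptors tested 3 were higher and 0 lower, led by the muscarinic Chrm2 with a median of 246.0 CPM in members and 178.2 CPM in the others (0.48).

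Hormone receptors were also tested. Of 11 steroid and thyroid hormone receptors 4 were higher and 6 lower. The estrogen receptor Esr2 (-1.15 ± 0.29, SE, adjusted p = 0.00557), the progesterone receptor Pgr (-0.68) and the glucocorticoid receptor Nr3c1 (-0.28) were lower. The orphan receptors Rorb (1.03) and Rora (0.76) were higher. With predicted doublets removed, 2 were higher and 5 lower, and Rorb, at 0.43, was not among them. Esr2 did not pass with a threshold of 3 genes (-0.22).

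Ligand-gated channels and glutamate receptors changed in both directions. Of 24 glutamate receptors 8 were higher and 11 lower, and 7 were lower without predicted doublets. The metabotropic Grm7 (0.94), Grm4 (0.87) and Grm3 (0.65) and the AMPA subunit Gria1 (0.50) were higher, while the kainate subunits Grik1 (-0.55) and Grik2 (-0.54) were lower. Grin2c had the largest higher difference (1.22) but did not pass without predicted doublets (0.75). Of 20 GABA and glycine receptor subunits 5 were higher and 7 lower, with 4 lower after removal of predicted doublets. Gabrg1 ranged from 195.9 to 276.9 CPM in members with a median of 263.2 CPM, against 119.3 to 135.6 CPM with a median of 131.2 CPM in the others (0.99 ± 0.05, SE). The glycine receptor subunit Glra2 was lower (-0.98), as was Gabrq (-1.06), which passed neither without predicted doublets (-1.11) nor without replicate 4.

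Of 41 potassium and HCN channel genes 16 were higher and 11 lower. Kcnip4, which binds Kv4 channels, ranged from 4551.2 to 6188.1 CPM in members with a median of 5582.4 CPM, against 2237.8 to 2826.9 CPM with a median of 2399.7 CPM in the others (1.2 ± 0.06, SE). The Kv7 subunits Kcnq3 (0.53) and Kcnq5 (0.54) were higher. Lower were the small-conductance calcium-activated channel Kcnn3 (-0.96) and the inward rectifier Kcnj6 (-0.69). Of 24 sodium and calcium channel genes 5 were higher and 10 lower, and 6 were lower without predicted doublets. Besides Cacna2d3, the T-type channel Cacna1i was higher, with a median of 34.4 CPM in members and 10.1 CPM in the others (1.74 ± 0.08), whereas the other auxiliary subunits Cacna2d1 (-0.63) and Cacna2d2 (-0.32) were lower. Of 12 TRP channels tested 1 was higher and 6 lower, and the higher one, Pkd2l1 (1.45), was no longer called without predicted doublets. Trpm3 ranged from 1349.8 to 1747.9 CPM in members with a median of 1471.2 CPM, against 2496.2 to 2766.4 CPM with a median of 2695.4 CPM (-0.80 ± 0.06).

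Transcription factors were tested as a list of 70, of which 28 were higher and 15 lower in members. With predicted doublets removed 18 were higher and 16 lower. Tcf4, a basic helix-loop-helix factor that binds E-boxes, ranged from 947.5 to 1205.2 CPM in members with a median of 1171.9 CPM, against 302.3 to 360.1 CPM with a median of 332.0 CPM in the others. The groups were far apart, replicate 4 being the lowest of the members, and the log2 difference was 1.78 ± 0.06 (SE, adjusted p = 2.32e-12). GABAergic nuclei outside the gate and astrocyte-marker nuclei held Tcf4 at 925.6 ± 150.6 and 1322.1 ± 44.0 CPM (SD, n = 6). Mef2c (1.21), a MADS-box factor, Sox6 (0.95) and Tshz1 (0.74) were also higher. The LIM-homeodomain factor Isl1 had a median of 8.03 CPM in members and 18.6 CPM in the others (-1.0 ± 0.14), and Zfhx3 (-0.98), Prdm16 (-0.96), Tox (-0.64) and Meis2 (-0.52) were lower too.

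Of 19 further genes of the Pax and Eya families and their partner families, which include Six3 and Dach1, 7 were tested, 2 were higher and 1 lower, and 7 had at most 3 counts in members. Eya2 had a median of 6.22 CPM in members and 4.15 CPM in the others (0.77 ± 0.15), and Eya1 differed by 0.64 ± 0.11. Eya2 did not pass with few glial UMIs (0.39) or after thinning to 3000 UMIs. Six3, a homeodomain factor, had a median of 5.33 CPM in members and 7.49 CPM in the others (-0.53 ± 0.13, SE), and did not pass with a threshold of 3 marker genes (-0.21). Eya3 was measured at 82.1 ± 3.21 CPM in members and 82.3 ± 1.81 CPM in the others (SD, n = 6). Of these, 1 was higher and 2 were lower with predicted doublets removed. Of 26 paralogs of the other 4 genes 4 were higher and 7 lower, among them Syt17, Syt10 (1.21), Syt7 (-0.56) and Necab2 (-0.68). Sel1l differed by -0.01 and Sel1l2 by -0.18, neither passing the test.

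Calcium-binding proteins gave 7 higher and 9 lower of 20. Calb2, calretinin, ranged from 5.91 to 8.65 CPM in members with a median of 8.02 CPM, against 1.33 to 2.87 CPM with a median of 2.31 CPM in the others (1.81 ± 0.14, SE, adjusted p = 2.35e-08). The calmodulin kinase genes Camk2d (-0.44), Camk2a (-0.35) and Camk4 (-0.32) were lower. Of 31 genes of cyclic nucleotide and related kinase signalling 15 were higher and 8 lower. Prkg1, a cGMP-dependent kinase, ranged from 2334.3 to 3337.5 CPM in members with a median of 2991.4 CPM, against 1147.3 to 1289.8 CPM with a median of 1205.1 CPM (1.31), and the cGMP-degrading Pde2a was lower (-0.93). Of 7 endocannabinoid genes Mgll, which degrades 2-arachidonoylglycerol, was higher with a median of 68.5 CPM in members and 39.1 CPM in the others (0.87), and 4 were lower, of which the count was 2 without predicted doublets and 2 without replicate 4. Of 7 genes of GABA synthesis, release and uptake tested, 4 were higher and 0 were lower, among them the glutamine transporter Slc38a2 (0.41).

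Immediate early genes, which are transcribed soon after neuronal activity, gave 0 higher and 8 lower of 16, with a list median of -0.43. Fos was at 1.29 ± 1.09 CPM in members and 2.31 ± 1.37 CPM in the others (SD, n = 6), a log2 difference of -0.82 ± 0.23 (SE, adjusted p = 0.0107) that did not pass in 5 of 18 alternatives, among them that without replicate 5, and Npas4 differed by -0.48. The count was 4 lower without predicted doublets and 0 lower after thinning to 3000 UMIs, where edgeR made no call in either direction for this list.

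Genes of cell contact and matrix changed in both directions. Of 45 synaptic adhesion genes 18 were higher and 18 lower. Igsf21, a synaptic adhesion protein, had the largest higher difference (1.73), with Epha3, an ephrin receptor, at 1.37 and Cntn5 at 0.83, and Nxph1, a neurexin ligand, ranged from 486.7 to 915.3 CPM in members with a median of 673.4 CPM, against 1450.0 to 1548.1 CPM with a median of 1493.8 CPM in the others (-1.11 ± 0.07, SE). Of 24 cadherins and protocadherins 9 were higher and 9 lower, led by Cdh10 (1.23) and Pcdh20 (-0.79). Of 45 axon guidance genes 11 were higher, among them the netrin Ntn4 (1.47), Sema3a (1.0) and Robo1 (1.03), and 19 were lower, among them Epha4 (-0.99) and Slit1 (-0.85). Of 53 extracellular matrix genes 16 were higher and 16 lower, and 9 were higher without predicted doublets. Hs6st3, a heparan sulfate sulfotransferase, ranged from 2049.9 to 3812.1 CPM in members with a median of 2932.9 CPM, against 686.7 to 913.7 CPM with a median of 815.6 CPM (1.87 ± 0.07). Of 41 growth factor genes 15 were higher, including Wnt5a (1.47), and 12 lower, including Nrg1 (-0.79) and Ret (-1.13).

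**Figure D5:**
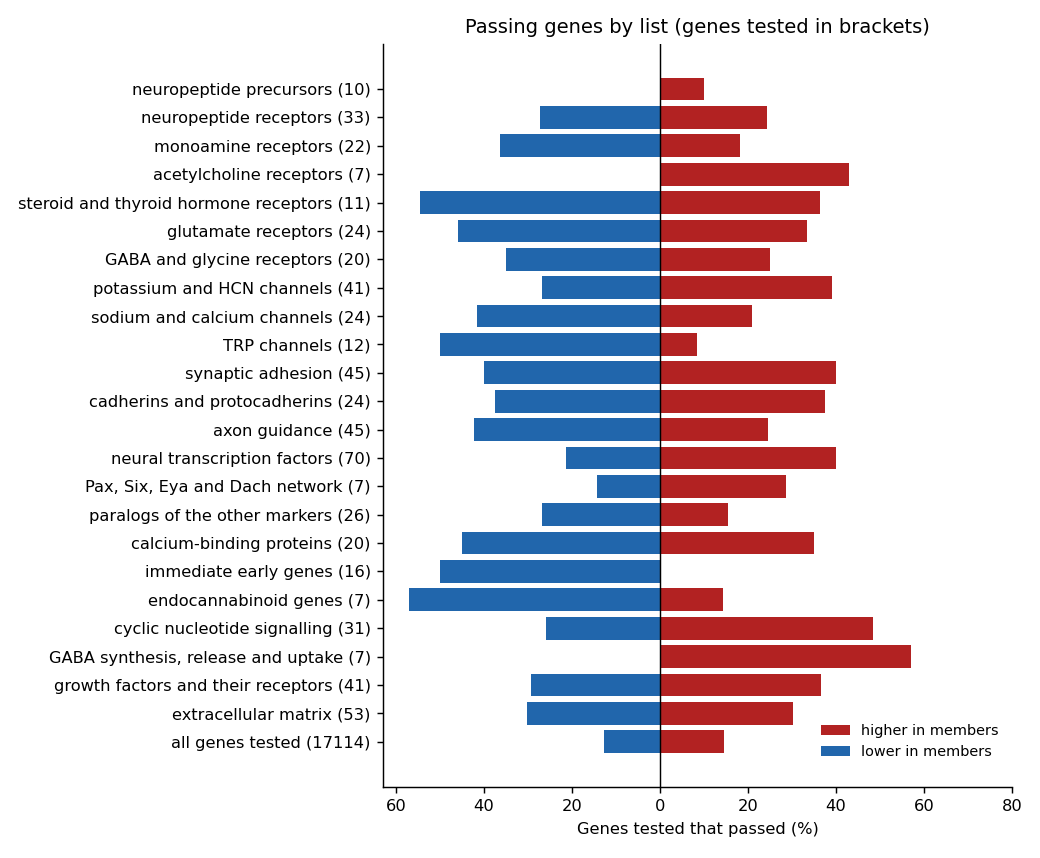
Share of tested genes of each list that passed the test as higher (red, right) or lower (blue, left) in members than in other lateral septum nuclei, in % of the genes tested, whose number stands in brackets. The bottom row is all genes tested, with 14.4% higher and 12.8% lower, and neuropeptide precursors, acetylcholine receptors and GABA synthesis genes have no lower call.

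The members were also set against the nuclei most like them. Of 4 groups of other lateral septum nuclei with at least 2 label genes, that with Col25a1 and Tll1 (1143 nuclei) had the highest Pearson correlation of mean log2 CPM with the members, 0.9820 across 13815 genes, and that with Calcr, Esr1 and Prlr (1122 nuclei) the next, 0.9814. The other groups were chosen by Ano2 and Ntf3 (1309 nuclei) and by Col6a3 and Tacr1 (239 nuclei). Genes are not independent replicates, and the correlations describe order only. Against the Col25a1 and Tll1 nuclei 3593 of 13815 genes passed (26%), 1847 higher in members (13.4%) and 1746 lower (12.6%). Against the Calcr, Esr1 and Prlr nuclei 3366 passed (24.4%), 1826 higher in members (13.2%) and 1540 lower (11.1%). Both comparisons share the member nuclei with the first, so their values stand side by side and are not independent.

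All 14 genes named as higher against the whole gate were higher against both groups as well. Against the Col25a1 and Tll1 nuclei 2600014E21Rik differed by 6.99 ± 0.24, Otof by 2.68 ± 0.17, Kctd8 by 2.51 ± 0.18 and Cacna2d3 by 2.11 ± 0.15 on the log2 scale (SE). Against the Calcr, Esr1 and Prlr nuclei the same genes differed by 6.30 ± 0.22, 2.89 ± 0.18, 1.95 ± 0.17 and 2.0 ± 0.15. Tcf4 was higher against both, by 2.25 ± 0.09 and 2.08 ± 0.09. Reln was higher against the Col25a1 and Tll1 nuclei (1.92) and did not pass against the Calcr, Esr1 and Prlr nuclei (-0.03). The latter nuclei held Reln at a mean of 187.0 CPM, against 173.4 CPM in members. Chrm2 did not pass against the Col25a1 and Tll1 nuclei (-0.23, adjusted p = 0.13) and was higher against the Calcr, Esr1 and Prlr nuclei (0.77). Fos was lower against the Col25a1 and Tll1 nuclei (-1.13) and did not pass against the Calcr, Esr1 and Prlr nuclei (0.26). Chat, lower against the whole gate, passed against neither group (0.40 and 0.71). Of the 14 genes named as lower against the whole gate, 12 could be tested. Of these, 8 were lower against the Col25a1 and Tll1 nuclei and 9 against the Calcr, Esr1 and Prlr nuclei. Ano2 and Col6a3 were not tested because they are label genes of other groups within the gate. Prlr and Calcr, also lower against the whole gate, are label genes too and were not tested here. Ano1 (-1.83 ± 0.07 and -1.04 ± 0.08) and Cpa6 (-2.30 ± 0.16 and -1.13 ± 0.16) were lower against both. Myo5b was lower against the Col25a1 and Tll1 nuclei (-1.65 ± 0.09) but did not pass against the Calcr, Esr1 and Prlr nuclei (-0.16 ± 0.09, adjusted p = 0.202), and whether the 2 differences differ was not tested. Stac2 (-0.09 and -0.01) and Lama3 (0.17 and 0.09) passed against neither group, and 6330411D24Rik did not pass against the Col25a1 and Tll1 nuclei (0.30). Among list genes lower against the whole gate, Necab2 passed against neither group (-0.03 and 0.09). Drd2 (-0.75 and -0.13), Camk2d (-0.59 and -0.07), Cacna2d1 (-0.97 and -0.09) and Epha4 (-1.18 and -0.20) were lower against the Col25a1 and Tll1 nuclei only. Six3 was lower against the Calcr, Esr1 and Prlr nuclei only (0.50 and -1.35). Others, among them Nxph1 (-1.51 and -1.13) and Isl1 (-1.09 and -1.07), were lower against both.

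Further genes were among the 6 largest differences in each direction against these groups. Against the Col25a1 and Tll1 nuclei the 6 largest higher differences added Tmem132c, a transmembrane protein gene, at 100.5 ± 13.3 CPM in members and 12.3 ± 1.73 CPM in those nuclei (3.01 ± 0.16), with the overlapping Tmem132cos. The 6 largest lower ones added Styk1 (-2.08 ± 0.13), a kinase-like gene, Pappa (-1.84 ± 0.25), a protease of IGF-binding proteins, and Glra2 (-1.68 ± 0.10). Against the Calcr, Esr1 and Prlr nuclei Epha3 (2.45 ± 0.12) joined the higher ones, at 428.5 ± 79.1 CPM in members and 82.0 ± 4.59 CPM in those nuclei (SD, n = 6). The lower ones were Gm45194 (-3.19 ± 0.18), Otx2os1 (-2.61 ± 0.15), Asb4 (-2.46 ± 0.20), the Notch-family ligand Dlk1 (-2.08 ± 0.16), Sfta3-ps (-1.97 ± 0.18) and the heparan sulfate enzyme Ndst4 (-1.87 ± 0.19).

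Members varied among themselves in RNAs that the rule did not use. After thinning each member to 3000 UMIs, the variance-to-mean ratio over members, which is near 1 for counting noise alone, had a median of 1.10 over 2604 genes. The highest ratio was that of Lsamp, a cell adhesion gene, at 23.3 ± 2.39 over the 6 libraries, against 8.56 ± 0.22 in other lateral septum nuclei. Tafa1, a secreted neural factor, had 19.0 ± 3.26 in members and 17.5 ± 1.53 in the others, and Malat1, a nuclear noncoding RNA, 14 ± 3.90 and 13.2 ± 1.49 (SD, n = 6 each). Adarb2 had 16.3 ± 14.6 in members with libraries from 3.74 to 41.5, so this value differed widely between libraries. Erbb4 (12.3), Hs6st3 (11.8), Nrg3 (10.3), Lrrtm4 (9.27), Kcnip4 (9.22) and Galntl6 (8.41) followed. Kcnip4 had a ratio of 17.3 ± 1.08 in the other nuclei, above that of the members. No test was made of these ratios.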

How the data were processed

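The deposited matrices hold raw UMI counts for 32285 genes in 6 libraries. Per the submitters' processing notes the authors used Cell Ranger 3.1.0 and STAR, whereas the file headers name Cell Ranger 5.0.0. Genome build, intron counting and strand use are not stated. Per the labels' protocols, libraries were made with Chromium 3' v3 kits; the protocol speaks of cells and the series title of nuclei. Gene overlaps came from GENCODE M21 and upstream sequences from RefSeq.

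Member nuclei, gene lists and tests were chosen with earlier results of these data known. Raw counts were summed per library and nucleus group and tested with edgeR 4.0.16 (R 4.3.3, TMM factors, filterByExpr, quasi-likelihood test, library as a block, Benjamini-Hochberg over all genes tested, threshold 0.05). In the main comparison the block joins 2 sums of the same library. The similar-group comparisons used a joint fit, where it joins the sums of the members and of all 4 groups. SEs are the absolute log2 difference over the square root of F. The 11 genes of the rule stayed in library sizes and were not tested. Named genes were the 14 largest differences in each direction among genes past the threshold, with 6 of 6 libraries in direction, at least 20 CPM in the higher group and no sex-linked or mitochondrial gene (6 each for the similar groups), the largest in each direction of every list, and the 10 highest variance ratios. Further genes of a list are examples chosen after their values were seen. CPM is per 1e6 UMIs of the summed nuclei. Similar groups had at least 2 label genes of 1 group and not of another, with label genes left out of testing. Doublets were predicted within each library from added pairs of barcodes (30 components, 50 neighbours, 0.8% per 1000 barcodes), and 51.2 to 62.9% of the added pairs reached the threshold, so doublets remain. They were kept in the main comparison. The scripts were tested on simulated data first. Alternatives were other scaling (RLE), DESeq2 1.42.0, no filter, no block, other thresholds of marker genes, matched or thinned depth, doublets removed, few glial UMIs, and each library left out.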

Additional observations from a re-analysis of the deposited data

Results flagged for a closer look

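Of 127 results examined over the 6 libraries, 9 had a library whose gap to the nearest other was above Dixon's 95% critical value, which chance brings in about 1 of 20 groups. Replicate 4 accounts for 7 of them. It was low for Syt6 in members (115.1 CPM, the others 156.4 to 181.2 CPM). It was low in the log2 difference between members and other lateral septum nuclei for Dpf3 (1.84), Gabrg1 (0.71), Igsf21 (1.29) and Tcf4 (1.39), and high for Rorb (1.34) and Ret (-0.43). Fitted without replicate 4, the log2 difference was 2.46 for Dpf3 and 0.95 for Rorb. Members of replicate 4 also held the most counts of the 8 glial genes, 195.5 CPM, and 175.2 CPM with predicted doublets removed, against 31.0 to 74.2 CPM in members of the other 5 libraries without predicted doublets, whose part in these values was not tested. Replicate 5 was low in the log2 difference of Camk2d (-0.60). Replicate 6 was high in the variance-to-mean ratio of Erbb4 among members (24.6).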

How the results depend on the processing

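Among nuclei with at most 1 UMI of the 8 glial genes, an alternative chosen after seeing the data, Pdgfra (-0.90) and Csf1r (-0.00), both used for that limit, and Pdgfrb (-0.42) turned to lower in members; no other named gene turned under any alternative run. The count of genes higher in members, 2472 as reported, was 1617 with other nuclei matched in UMI count (where replicate 4 had no matched nuclei and so added nothing), 1085 thinned to 3000 UMIs, 1607 with predicted doublets removed and 1632 with at least 5 genes and doublets removed (chosen after seeing the data). With at least 5 genes alone it was 2081. All of these settings held fewer nuclei or counts, whose part in the lower counts was not tested. The lower count, 2192 as reported, was 963 when thinned. Leaving out 1 library gave 2182 to 2399 higher and 1683 to 1977 lower, for the Col25a1 and Tll1 nuclei 1589 to 1676 and 1440 to 1564, and for the Calcr, Esr1 and Prlr nuclei 1580 to 1697 and 1302 to 1429. Without the replicate block the main counts were 2426 and 1988, and for the similar groups 1696 and 1541, and 1688 and 1380, and DESeq2 gave 2120 and 1623. Without the block the 28 genes of the main comparison all passed, while the list genes Fos, Dlx6os1, Kcnc2 and Flt1 did not pass. The share of members was 21.7% at 3 genes, 5.72% at 5, 3.84% after thinning and 8.30% without predicted doublets. With at least 3 of the other 5 genes the left-out levels were 460.2 (Necab1), 168.9 (Sel1l3), 60.0 (Eya4), 54.9 (Pax6), 1057.8 (Cpne4) and 90.6 CPM (Syt6). Ratios at 2000 UMIs were 15.9 (Lsamp), 15 (Tafa1), 9.83 (Malat1), 8.27 (Hs6st3), 7.14 (Nrg3), 6.32 (Lrrtm4), 6.53 (Kcnip4) and 6.22 (Galntl6), as fewer counts lower such ratios.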
